A study of Mus musculus with 4 samples.

Results

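The Sonic hedgehog signal, its receptors and its Gli transcription factors were examined in mouse molar tooth germs exposed to TCDD (2,3,7,8-tetrachlorodibenzo-p-dioxin), a dioxin and ligand of the aryl hydrocarbon receptor. The 7 genes were chosen by symbol: Shh, Ptch1, Smo, Gli1, Gli2, Gli3 and Hhip. Of these, 6 were matched by 7 probe sets, out of 8252 genes with 10855 probe sets of 1 symbol each. Signals of Hhip were not analysed here. The explants, molar regions of the lower jaw, came from NMRI mouse embryos at embryonic day 14 and were kept for 24 h in organ culture, in medium with 10% fetal calf serum. One group received TCDD at 1 µM and the other the solvent DMSO at 0.65%, with no genetic change in either. There were 4 arrays, 2 for TCDD and 2 for DMSO, each from RNA of about 60 explants pooled over 3 experiments. The culture label of DMSO replicate 2 alone also names ascorbic acid. A pool holds epithelium, mesenchyme and whatever jaw tissue was dissected with them, and averages over many embryos.

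Hedgehog signalling starts with a secreted ligand that binds the receptor Patched (Ptch1). Binding frees Smoothened (Smo) from the receptor's block, and Smoothened then acts at the primary cilium on the Gli factors, of which Gli1 is mainly an activator and Gli3 mainly a repressor. Ptch1, Gli1 and Hhip are themselves induced by the pathway and are widely read as measures of its activity. In the mouse tooth germ Shh is made in the dental epithelium, above all in the enamel knot, a signalling centre of the cap stage, and acts on epithelium and on the mesenchyme below.

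TCDD acts through a receptor that binds DNA at elements with the core GCGTG, so the promoter windows of the genes were searched for it. RefSeq windows (GRCm38.p6), from 250 bases before to 50 bases after the start of transcription, were matched for 5 of the 7 genes: Ptch1, Smo, Gli2, Gli3 and Hhip. The core was present in 3 of these 5 windows and in 32.4% of all 32851 windows of this length, counting both strands. The longer form TNGCGTG, which contains the core, was in 0 of the 5 windows and in 5.07% of all. The Gli consensus GACCACCCA was in 0 of the 5 and in 0.253% of all. These are letter matches in a short window and not sites of binding. The 3 windows that hold the core are shown. Capitals mark the core, which lies on the opposite strand in each and so reads CACGC. The windows are chr13:63565686-63565985 on the minus strand for Ptch1, chr1:119053570-119053869 on the minus strand for Gli2 and chr6:29735247-29735546 on the plus strand for Smo. The match begins 24 bases after the start in Ptch1, 166 bases before it in Gli2 and 227 bases before it in Smo.
Ptch1: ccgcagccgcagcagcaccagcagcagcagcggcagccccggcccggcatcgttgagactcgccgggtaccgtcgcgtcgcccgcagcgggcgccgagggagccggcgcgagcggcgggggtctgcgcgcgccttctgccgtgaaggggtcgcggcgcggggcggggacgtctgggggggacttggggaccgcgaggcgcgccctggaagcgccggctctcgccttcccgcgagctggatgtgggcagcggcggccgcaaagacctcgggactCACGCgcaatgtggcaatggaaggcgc
Gli2: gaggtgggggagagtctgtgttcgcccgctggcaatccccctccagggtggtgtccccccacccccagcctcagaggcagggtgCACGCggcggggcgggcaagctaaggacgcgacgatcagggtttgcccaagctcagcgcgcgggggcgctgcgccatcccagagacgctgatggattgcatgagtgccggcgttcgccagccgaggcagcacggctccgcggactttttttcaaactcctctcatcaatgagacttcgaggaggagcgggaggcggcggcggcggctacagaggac
Smo: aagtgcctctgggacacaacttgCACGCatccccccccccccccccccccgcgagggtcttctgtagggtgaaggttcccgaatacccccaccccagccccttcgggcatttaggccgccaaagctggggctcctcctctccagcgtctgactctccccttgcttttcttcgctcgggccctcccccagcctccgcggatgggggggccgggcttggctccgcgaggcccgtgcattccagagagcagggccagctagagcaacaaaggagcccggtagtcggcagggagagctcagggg

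Values are MAS5 signals, which the authors scaled to a target of 100 on each array, and signals of different probe sets were not set against each other. Differences are those of log2(signal + 16), where the offset makes changes of dim genes look smaller than they are. They come from limma with Benjamini-Hochberg adjustment over the 5783 probe sets whose 4-array mean was 50 or more. Of these, 4 (0.0692%) passed an adjusted p of 0.05. The exposure label was borne out by Cyp1a1 (94715_at), a cytochrome P450 gene induced through the aryl hydrocarbon receptor, with signals of 194.8 and 210.5 in TCDD and 14.7 and 12.7 in DMSO (log2 change 2.88 ± 0.22 SE, limma adjusted p 3.68e-04). Cyp1b1 (99979_at), another such gene, had 519.9 and 455.0 in TCDD and 98.6 and 77.8 in DMSO (log2 change 2.28 ± 0.21 SE, limma adjusted p 9.18e-04). Each gene has another probe set below the filter that did not pass the test. That of Cyp1a1 (161831_at) had 15.5 and 18.5 in TCDD and 32.5 and 3.6 in DMSO, and that of Cyp1b1 (161368_r_at) 0.0 and 0.1 in TCDD and 1.3 and 1.0 in DMSO. The tissue label was checked on its markers. Trp63, a transcription factor of stratified epithelia, had 255.6 and 283.3 in TCDD and 184.3 and 286.6 in DMSO, and the mesenchymal factor Msx1 had 540.6 and 687.1 in TCDD and 605.2 and 705.0 in DMSO. The probe sets of the basal keratins Krt5, Krt14 and Krt15 lay between 0.6 and 10.8 on all arrays, and that of Vim, an intermediate filament gene of mesenchyme, between 17.2 and 30.0.

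The Hedgehog genes did not separate TCDD-treated from DMSO-treated tooth germs. Of the 7 probe sets, 6, standing for 5 genes, reached the mean signal of 50, and 0 of the 6 passed the limma test, either adjusted or at an unadjusted p of 0.05. The unadjusted p was under 0.05 in 2.59% of all probe sets tested. The groups overlapped in all 7, so that 0 of the 6 probe sets past the filter had both TCDD arrays on the same side of both DMSO arrays, against 29.8% of all probe sets. Differences of the 6 ran from -0.08 to 0.26 with a median of 0.07, beside a median of 0.01 over all probe sets. With the brightest probe set of each of the 5 genes the median was 0.08, and it was 0.47 without TCDD replicate 1, 0.32 without DMSO replicate 2, 0.02 without DMSO replicate 1 and 0.07 without TCDD replicate 2. The median size of a difference, regardless of sign, was 0.08 for the 6 and 0.15 over all. All 6 had a limma adjusted p of 0.997. An exact permutation test was not run, since with 2 arrays a group its smallest two-sided p is 0.33. In pooled tissue, fewer cells of a type and less RNA per cell cannot be told apart, and equal signals can likewise hide opposite changes in epithelium and mesenchyme.

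**Figure D1:**
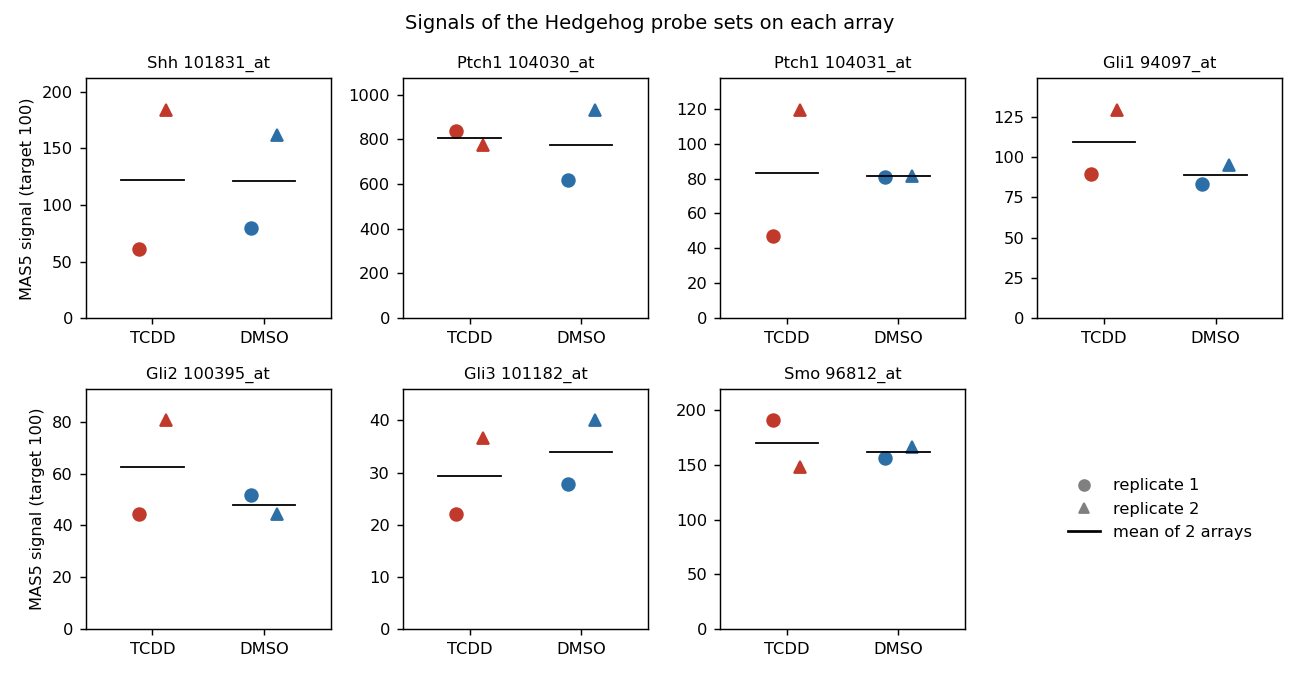
MAS5 signal (linear axis from 0) of each Hedgehog probe set on each array, TCDD in red and DMSO in blue, with circles for replicate 1, triangles for replicate 2 and a bar at the mean of 2 arrays. The TCDD and DMSO points overlap in every panel, and Shh splits by replicate number, with 184.2 and 162.1 on the replicate 2 arrays.

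The ligand gene Shh had the largest error of the 6 probe sets in the fit. Its probe set (101831_at) had signals of 60.8 and 184.2 in TCDD and of 79.5 and 162.1 in DMSO. The lowest and the highest signal were both in TCDD, with the DMSO arrays between them. The means were 122.5 ± 87.3 in TCDD and 120.8 ± 58.4 in DMSO (SD, n = 2 each), and the log2 difference was -0.07 ± 0.41 (SE) with a 95% interval from -0.97 to 0.83. In folds of signal + 16 that interval runs from 0.509 to 1.77, so neither a fall to that level nor a rise of that size could be told from no change. The sign of the difference turned with the arrays: it was 0.62 without TCDD replicate 1 and 0.38 without DMSO replicate 2, and neither passed limma (adjusted p 1 and 0.887).

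Shh signal went with the replicate number of the pool more than with the exposure. The replicate 2 pool had 3.03 times the signal of the replicate 1 pool in TCDD and 2.04 times in DMSO. Averaged over the groups, replicate 2 minus replicate 1 was 1.14 for Shh on the log2 scale. The same difference was 0.56 for Ptch1 at 104031_at, 0.41 for Gli3, 0.31 for Gli1, 0.25 for Gli2, 0.24 for Ptch1 at 104030_at and -0.12 for Smo. In 6 of the 7 probe sets the difference between numbers was larger than that between groups, as it was in 56.4% of all probe sets past the filter. Both replicate 2 arrays lay above both replicate 1 arrays in Shh, Gli1, Gli3 and Ptch1 at 104031_at. Of the 6 probe sets past the filter this held for 3, against 23.5% of all. Among the 3 is Ptch1 at 104031_at, where the DMSO arrays were close to a tie (80.9 and 81.6). The brighter Ptch1 probe set, 104030_at, did not split by number. No label says what the replicate numbers stand for.

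Several measured facts moved with the replicate number beside Shh. The summed signal of 20 skeletal muscle genes was 1594 and 627 in TCDD (replicates 1 and 2) and 1295 and 582 in DMSO. That of 4 bone genes was 1777 and 820 in TCDD and 1635 and 905 in DMSO. Its largest part was Ibsp (100476_at), at 1053.6 and 446.7 in TCDD and 1029.2 and 479.6 in DMSO. The other probe set of Ibsp (97572_at) showed no such split, with 72.3 and 89.1 in TCDD and 95.6 and 94.1 in DMSO. Of the 20 muscle genes, 7 reached the filter. Actc1, a striated muscle actin, was the brightest, at 612.4 and 180.3 in TCDD and 457.2 and 152.3 in DMSO. Myf5, a muscle transcription factor, had only 10.6 and 0.7 in TCDD and 12.6 and 3.4 in DMSO. The sums of both lists were thus lower in the replicate 2 pools, where Shh was higher. The summed signal of 24 genes of the dental and oral epithelium was 6310 and 6764 in TCDD and 4633 and 6050 in DMSO. It was thus higher in replicate 2, and higher in TCDD. The same held for 24 genes of the dental mesenchyme, with 9620 and 9730 in TCDD and 8618 and 9306 in DMSO. For genes past the filter, the median of replicate 2 minus replicate 1 was 0.09 in the epithelium list and 0.20 in the mesenchyme list. Per the labels, the labelling reactions of both replicate 1 samples started from 11 µg of RNA, that of TCDD replicate 2 from 8 µg and that of DMSO replicate 2 from 7 µg. Ascorbic acid stands in the culture label of DMSO replicate 2 alone, so it follows neither the number nor the exposure. The part of these in the Shh signals was not tested.

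**Figure D2:**
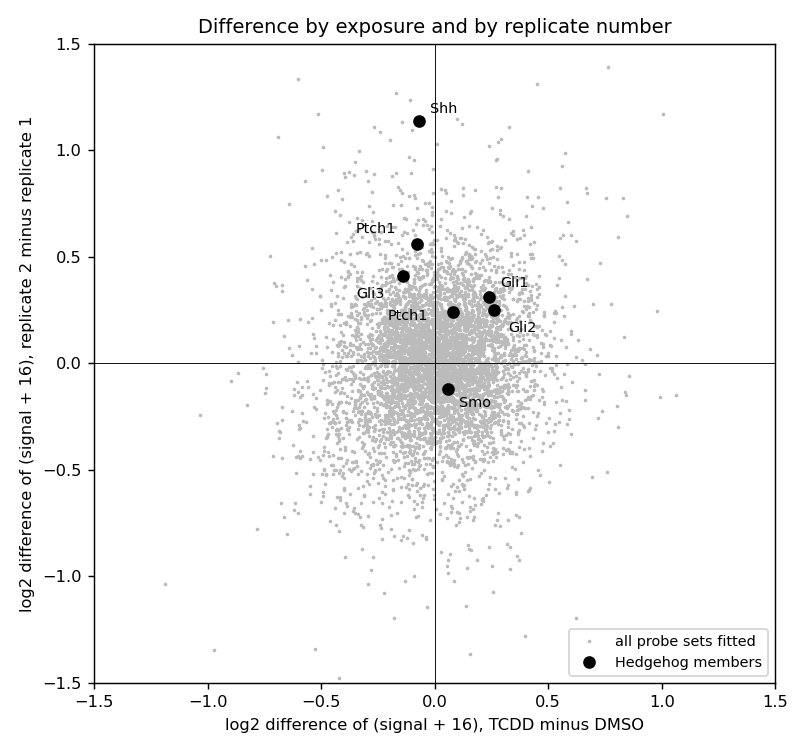
Log2 difference of signal + 16 between TCDD and DMSO (x axis) and between replicate 2 and replicate 1 averaged over both groups (y axis), for all probe sets fitted (grey) and the 7 Hedgehog probe sets (black, with Gli3, which is below the filter). The axes stop at 1.5 and leave out 14 probe sets. Shh lies at -0.07 by exposure and 1.14 by replicate number.

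The receptor gene Ptch1, which is also a target of the pathway, has 2 probe sets. At 104030_at the signals were 836.2 and 773.0 in TCDD and 616.6 and 932.5 in DMSO. Here both TCDD arrays lay between the DMSO arrays. The log2 difference was 0.08 ± 0.21 (SE, 95% interval -0.39 to 0.55), which in folds is 0.765 to 1.46. At 104031_at the signals were 46.9 and 119.4 in TCDD and 80.9 and 81.6 in DMSO, so here the DMSO arrays lay between those of TCDD. The difference was -0.08 ± 0.32 (SE, 95% interval -0.78 to 0.63). The probe sets put different arrays first, DMSO replicate 2 at 104030_at and TCDD replicate 2 at 104031_at. At 104030_at the sign turned without DMSO replicate 1 (-0.21), and at 104031_at it turned without TCDD replicate 1 (0.48), with a limma adjusted p of 1 in both.

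Smo, which encodes the transducer that Patched holds in check, had signals of 190.6 and 148.4 in TCDD (96812_at) and of 156.3 and 166.3 in DMSO. The DMSO arrays again lay between the TCDD arrays. Means were 169.5 ± 29.8 in TCDD and 161.3 ± 7.07 in DMSO (SD, n = 2 each). The log2 difference of 0.06 ± 0.21 (SE) had a 95% interval from -0.41 to 0.52, or 0.755 to 1.43 in folds. It was -0.11 without TCDD replicate 1 (limma adjusted p 1). Smo was the only one of the 7 probe sets with a lower average on the replicate 2 arrays.

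Gli1, the Gli factor whose own transcription follows pathway activity most directly, had signals of 89.8 and 129.4 in TCDD (94097_at) and of 83.2 and 95.0 in DMSO. It was higher in TCDD in 3 of the 4 array pairs, and TCDD replicate 1 lay below DMSO replicate 2. The log2 difference was 0.24 ± 0.23 (SE), with a 95% interval from -0.27 to 0.75, or 0.83 to 1.68 in folds. The difference kept its sign without each array in turn, from 0.01 without TCDD replicate 2 to 0.47 without TCDD replicate 1.

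Gli2, which encodes the main activator among the Gli factors, had signals of 44.4 and 80.5 in TCDD (100395_at) and of 51.7 and 44.3 in DMSO. TCDD replicate 2 stood above the other 3 arrays, which lay within 44.3 and 51.7. The log2 difference of 0.26 ± 0.27 (SE, 95% interval -0.35 to 0.86) was the largest of the 6 probe sets in the fit. Within replicate 1 the difference TCDD minus DMSO was -0.16 and within replicate 2 it was 0.68. The mean signal of 55.23 is just past the minimum of 50, and without TCDD replicate 2 it was below it. No difference is given without that array, where TCDD replicate 1 (44.4) lay between the DMSO arrays. Without TCDD replicate 1 the difference was 0.59.

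Gli3, which encodes the factor that acts mainly as a repressor, was below the minimum, with a mean of 31.65 over the 4 arrays. Its signals (101182_at) were 22.1 and 36.7 in TCDD and 27.8 and 40.0 in DMSO. The 2 replicate 1 values, 22.1 and 27.8, were stored as calendar days in the deposited table and turned back into signals, the only such cells among the 28 of these genes. The pools numbered 1 were the lower ones in both groups. In the fit without the filter the log2 difference was -0.14 ± 0.30 (SE, 95% interval -0.85 to 0.56, limma adjusted p 0.98). In that fit 0.0161% of 12422 probe sets passed. The difference was 0.09 without TCDD replicate 1 and 0.03 without DMSO replicate 2.

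**Figure D3:**
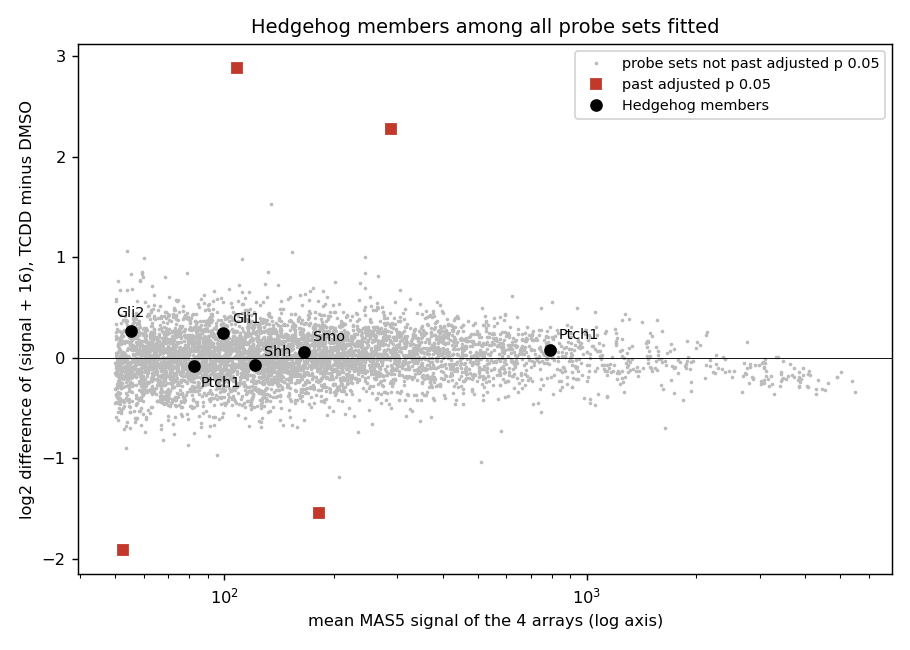
Mean MAS5 signal of the 4 arrays (log axis) against the log2 difference of signal + 16, TCDD minus DMSO, for the 5783 probe sets fitted (grey), the 4 past an adjusted p of 0.05 (red squares) and the 6 Hedgehog probe sets (black). The Hedgehog probe sets lie between -0.08 and 0.26, and the smallest of the called changes has a size of 1.55.

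The profiles most like each gene over the 4 arrays were found as the smallest root mean square distance between log2(signal + 16) values, each centred on its mean, among 2476 probe sets with an SD of at least 0.2. With 4 arrays many profiles come close, and the genes are named as a description. For Shh these were Dsc3, a desmosomal cadherin gene, at a distance of 0.086, and F2r and Ssr3, each at 0.094, on a profile whose own SD was 0.67. Dsc3 had signals of 24.2 and 85.5 in TCDD and 30.5 and 86.0 in DMSO, the same split by replicate number. For Ptch1 (104030_at) they were Nap1l1 at 0.015 and Gcsh and Smc3 at 0.019 each. For Gli1 they were Lama5, a laminin chain gene, at 0.028 and Pi4ka and Atraid at 0.031 each. For Gli2 they were Psmg2 at 0.059, Hnrnpl at 0.064 and Prkar1b at 0.067, and for Smo Tspan4 at 0.056 and Rtn4 and Cenpc1 at 0.057 each. No Hedgehog gene was among the 3 nearest of another. Gli3, below the filter, and Smo, with an SD of 0.14, could not be. Among so many candidates the absence of the rest does not show that the genes vary apart.

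The other ligands and surface proteins of the pathway did not change past the test either. Of 9 listed genes, 6 had a probe set and 3 passed the filter, with 0 called. Dhh, the Hedgehog ligand of Schwann and Sertoli cells, had 49.8 and 50.0 in TCDD and 99.6 and 44.6 in DMSO at 161111_f_at (log2 difference -0.34 ± 0.30 SE), so that 1 DMSO array stood apart, and -0.26 at 99861_at. Gas1, a co-receptor that binds Hedgehog ligands, had 490.5 and 401.1 in TCDD and 408.1 and 373.0 in DMSO (0.18 ± 0.19 SE). Gpc3, a glypican known in mouse to compete with Patched for the ligand, had 647.1 and 794.6 in TCDD and 457.6 and 795.3 in DMSO (0.24 ± 0.25 SE). Ihh, the Hedgehog ligand of growing cartilage, was below the filter, at 33.1 and 33.8 in TCDD and 55.6 and 35.8 in DMSO. Of 9 genes of ligand processing and release, 3 had a probe set and 2 passed the filter. These were Ext1 and Ext2, enzymes that build the heparan sulfate chains along which Hedgehog ligands spread, with differences of -0.07 ± 0.22 and 0.05 ± 0.25 (SE).

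Inside the cell, 20 of 44 listed genes of signal transduction and the primary cilium reached the filter. None passed the test, 16 were higher and 4 lower in TCDD, and their median was 0.10, where 51.1% of all probe sets were higher with a median of 0.01. Without DMSO replicate 1 the median of the list was 0.01 too. The arrays of the groups were apart in 5 of the 20, 4 higher and 1 lower, where 15.3% of all probe sets were apart and higher and 14.6% apart and lower. Fbxw11, a subunit of the ubiquitin ligase that marks Gli factors for processing, had 278.5 and 200.0 in TCDD and 212.4 and 157.4 in DMSO (0.34 ± 0.23 SE, and -0.12 ± 0.26 at 93634_at). The kinase genes Gsk3a and Csnk1a1, of the families that phosphorylate Gli factors for that step, differed by 0.17 ± 0.17 (SE) each, and Csnk1a1 by 0.04 ± 0.19 at its other probe set (93076_at). Prkar1a, the regulatory subunit of protein kinase A, which holds the pathway back, differed by 0.16 ± 0.17 and Cul3, a ubiquitin ligase scaffold, by 0.15 ± 0.19 (SE). Ift46, an intraflagellar transport gene of the cilium, gave unlike answers at its probe sets. The brighter (97423_at), which stands for the gene in these counts, had 139.4 and 134.3 in TCDD and 130.8 and 115.4 in DMSO (0.14 ± 0.20 SE), while 161949_at had 17.2 and 8.2 in TCDD and 107.4 and 76.6 in DMSO (log2 change -1.92, limma adjusted p 0.0383). With a TCDD mean of 12.7 that probe set reached the filter through its DMSO signals, and without the filter it did not pass (limma adjusted p 0.928).

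**Figure D4:**
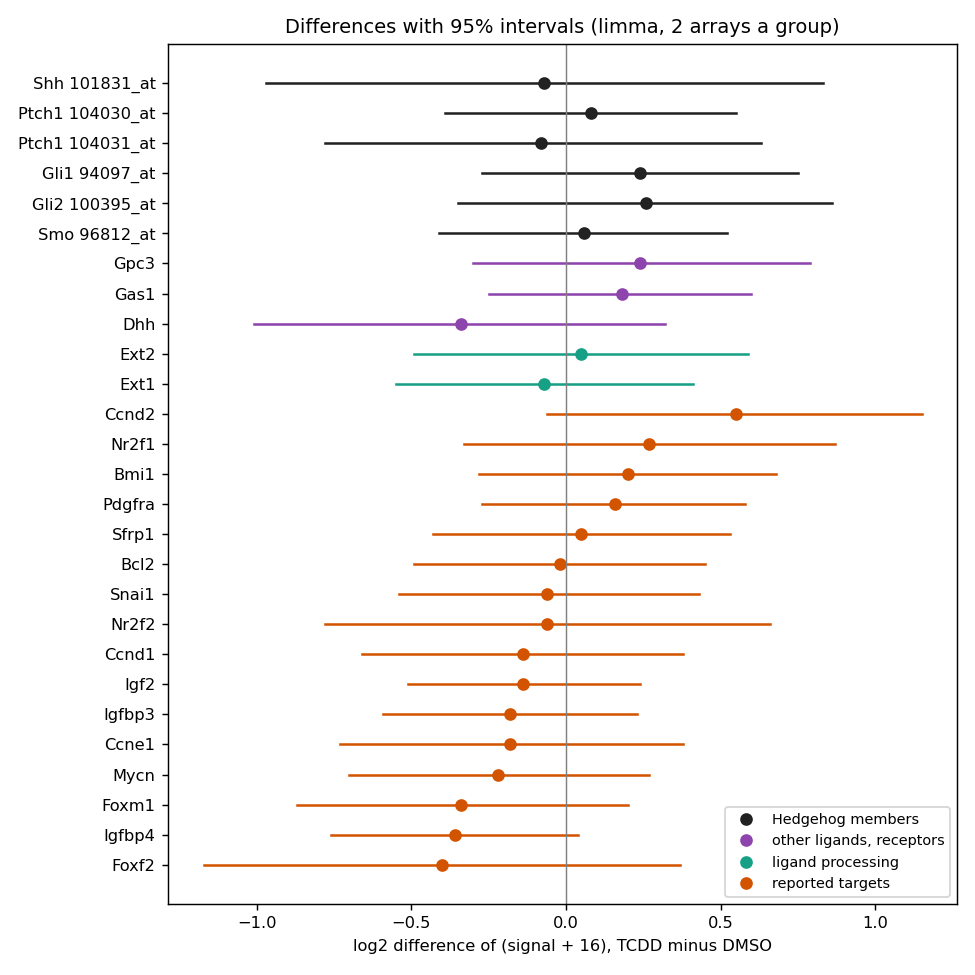
Log2 difference of signal + 16, TCDD minus DMSO, with its 95% interval from limma, for the Hedgehog probe sets past the filter and for other ligands and receptors, ligand processing genes and reported targets past the filter. All intervals shown cross 0, and that of Shh, from -0.97 to 0.83, is the widest of the Hedgehog members.

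Genes reported as targets of Hedgehog signalling in mouse tissues showed no common direction past the test. Of 29 listed, 23 had a probe set and 16 passed the filter, 5 higher and 11 lower in TCDD, with a median of -0.10 and 0 called. Without DMSO replicate 1 that median was -0.01. The arrays of the groups were apart in 5 of the 16, 1 higher and 4 lower, beside the 15.3% and 14.6% of all probe sets. Ccnd2, a cyclin gene of the G1 phase, had 297.7 and 320.9 in TCDD and 146.6 and 288.8 in DMSO, with 1 DMSO array low and a difference of 0.55 ± 0.27 (SE). Igfbp4, a binding protein of insulin-like growth factors, had 376.5 and 368.4 in TCDD and 491.6 and 472.0 in DMSO (101571_g_at, -0.36 ± 0.18 SE). Its probe set 94222_at differed by -0.37, and 101570_at, with signals of at most 14.0, by 0.41. Foxm1, a factor of dividing cells, differed by -0.34 ± 0.24 at 98306_g_at and by 0.75 ± 0.34 at 98305_at, which is below the filter and had 37.7 and 40.9 in TCDD and 8.4 and 28.2 in DMSO. Mycn differed by -0.22 ± 0.22 (SE). Foxf2, a forkhead gene of oral mesenchyme, had 29.5 and 68.1 in TCDD and 44.4 and 93.7 in DMSO (-0.40 ± 0.35 SE). Like Shh, Foxf2 was higher on both replicate 2 arrays than on both replicate 1 arrays.

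Shh is itself one of the enamel knot signals. Of 25 listed genes 12 reached the filter, 5 higher and 7 lower in TCDD, with 0 called and a median of -0.01, which ran from -0.27 without TCDD replicate 2 to 0.27 without TCDD replicate 1. Between replicate numbers their median was 0.36, replicate 2 minus replicate 1, beside 0.01 over all probe sets and 0.20 in the dental mesenchyme list. The knot list includes Shh itself (1.14). At the brightest probe sets, Fgf4 (-0.17), Bmp4 (-0.40) and Cdkn1a (-1.03) were lower on average in replicate 2, and the others past the filter were higher. Bmp4 went the other way at 93455_s_at, with 167.0 and 256.1 in TCDD and 155.9 and 214.1 in DMSO. Cdkn1a was lower in replicate 2 only in DMSO (-2.50), and higher in TCDD (0.43). Fst, whose product follistatin binds activin, differed by 0.56 ± 0.22, Fgf4, a growth factor of the knot, by -0.47 ± 0.22 and Bmp4 by 0.42 ± 0.23 (SE, 93456_r_at, and 0.17 ± 0.25 at 93455_s_at). Cdkn1a, the cell cycle inhibitor of the knot, differed by -1.19 ± 0.58 (SE), with 1 DMSO array at 559.1 and the other 3 arrays between 75.4 and 107.2. Its other probe set (94881_at) had 84.0 and 66.6 in TCDD and 71.1 and 74.2 in DMSO (0.04 ± 0.22 SE), with no array standing apart. Dusp6, a feedback phosphatase of FGF signalling, differed by 0.18 ± 0.24 (SE), and by -0.38 ± 0.18 at the dim 161536_r_at. The genes of the epithelium that makes Shh were mostly higher in TCDD, 17 of 20 past the filter, with a median of 0.25 and 0 called. That median was 0.13 without DMSO replicate 1 and 0.42 without DMSO replicate 2. Perp, a desmosome gene, had 756.8 and 738.0 in TCDD and 393.2 and 592.1 in DMSO (0.61 ± 0.21 SE), Pkp1 differed by 0.47 ± 0.22 and Cdh1 by -0.44 ± 0.21 (SE). Of 19 genes of the dental mesenchyme, which responds to Shh, 10 were higher and 9 lower, with a median of 0.03 (0.18 without TCDD replicate 1, 0.13 without DMSO replicate 2, -0.13 without DMSO replicate 1 and -0.05 without TCDD replicate 2) and 0 called. The part of the epithelial difference in the Hedgehog signals was not tested.

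**Figure D5:**
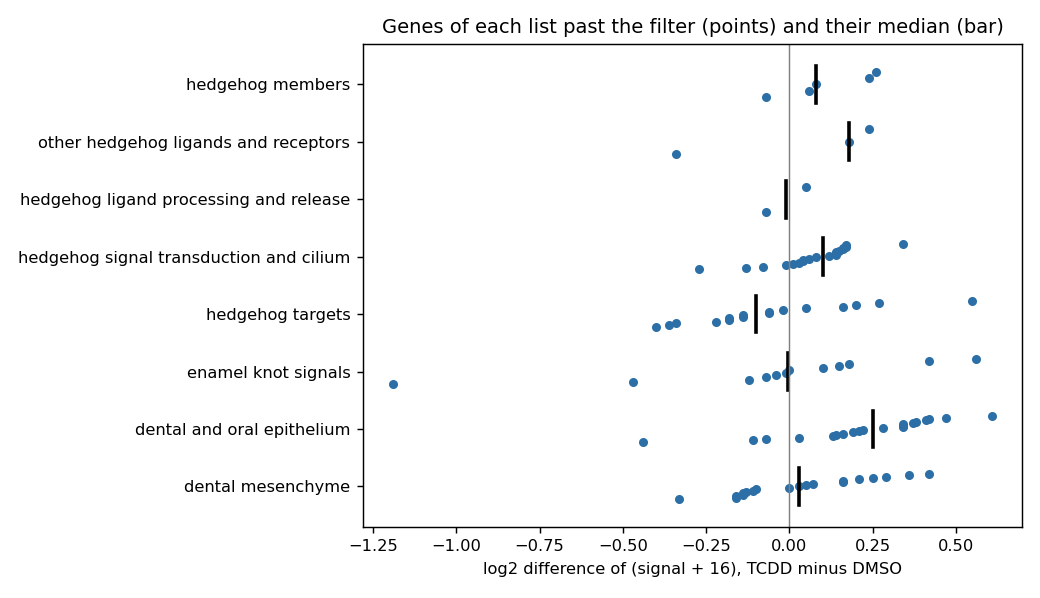
Log2 difference of signal + 16, TCDD minus DMSO, of each gene past the filter (points, at its brightest probe set) and the median of its list (bar). Of the lists plotted, medians run from -0.10 in the reported Hedgehog targets to 0.25 in the dental and oral epithelium.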

How the data were processed

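Each of the 4 RNA pools was hybridised to 1 murine U74v2A array, and the deposited values are intensity signals that the authors made with Microarray Suite 5.0 (MAS5) at a target signal of 100, per the labels. No detection calls were used, and precision is limited by the 4 arrays. Of 49952 deposited cells, 37.1% hold a day's serial number (38718 to 38990), which was turned back into a signal as day.month, such as 12.3. After that the 2%-trimmed mean was 100.05 on every array. Gene names are those of the platform annotation, checked through Entrez IDs. The fit used limma 3.58.1 in R 4.3.3 (eBayes with a trend, 8.8 prior degrees of freedom) on log2(signal + 16), without control probe sets, and was tested on simulated data. Each gene of a list stood at its brightest probe set, and up to 5 genes of a Hedgehog, target or enamel knot list, 3 of a tissue list and 2 of another cell type were named by smallest p. Trp63, Msx1, Krt5, Krt14, Krt15, Vim, Actc1, Ihh, Col2a1, Col9a1, Col11a2 and second probe sets were named after their values were seen. So were Ibsp and the battery, macrophage and muscle genes below the filter. The members and the lists were chosen with earlier results of these data known. The alternatives were other offsets, filters, quantile normalization, day cells set to 16, no trend, each array left out and a block for replicate number. P-values set a difference against a spread between pools, which limma takes largely from other probe sets (8.8 of 10.8 degrees of freedom).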

Additional observations from a re-analysis of the deposited data

How the results depend on the processing

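The differences of the 7 Hedgehog probe sets stayed short of the limma threshold in all 78 alternative fits, and kept their direction in 71. Dropping the filter, a minimum signal of 100, no trend and a block for replicate number cannot change these differences by design. Setting day cells to a fixed signal can change only that of Gli3, the only member with such cells. The count of 71 thus does not measure stability. The 7 reversals all came when 1 array was left out. Over those fits Shh ran from -0.76 to 0.62, Ptch1 from -0.21 to 0.37 (104030_at) and from -0.63 to 0.48 (104031_at), Gli3 from -0.38 to 0.09 and Smo from -0.11 to 0.22; the reversals were 0.62 and 0.38 for Shh, -0.21 and 0.48 for Ptch1, 0.09 and 0.03 for Gli3 and -0.11 for Smo. A lone array is there assumed to vary like the rest. Gli2 without TCDD replicate 2, and Gli1, Gli2 and Ptch1 (104031_at) at a minimum signal of 100, fell below the filter and gave no value. The fits thus do not show whether Gli2 kept its sign without TCDD replicate 2, its highest array (80.5, beside 44.4 in TCDD replicate 1). Over all probe sets, 2 passed without the filter and from 2 to 5 with 1 array left out. TCDD and DMSO arrays were apart in 3921 probe sets without the filter, in 1129 at a minimum of 100, and in 3371 to 4052 with 1 array left out, where fewer arrays have to agree. With the replicate number as a block 32 probe sets passed, none of them a Hedgehog gene: the differences were the same (Gli1 0.24, adjusted p 0.843). Deviations of same-numbered arrays correlated at 0.38 across probe sets, but 2 pairs do not show that the numbers pair the pools. Of 192 list medians, 22 moved by more than the list's own spread between arrays of a group. A list that varies much between arrays thus counts as unmoved, as the muscle list did at -0.42 and 0.46 against 0.11. No trend and the block leave a median unchanged by design, so this count does not measure stability.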

Other observations

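Other cell types that an explant could hold also had genes on the array, and 0 of those past the filter passed the limma test. Macrophage genes past the filter were higher in TCDD in 9 of 9, with a median of 0.28 (0.18 without DMSO replicate 2). They were led by the protease gene Ctss at 0.58 ± 0.23 and the lysozyme gene Lyz2 at 0.59 ± 0.24 (SE). Below the filter Adgre1 was at -0.28, Fcgr3 at -0.33, Fcer1g at -0.04 and Mrc1 at 0.32. Without the filter the median was 0.20 over 13 genes. Dim second probe sets of C1qb (162276_i_at) and Csf1r (161832_r_at) differed by -0.76 and -0.37. Those of Cd68, Adgre1 and Fcer1g differed by -0.04, -0.01 and 0.03. Skeletal muscle genes past the filter were higher in 6 of 7 with a median of 0.11 (-0.42 without TCDD replicate 1, -0.24 without DMSO replicate 2, 0.41 without DMSO replicate 1 and 0.46 without TCDD replicate 2). Among them were Tnnt1, a troponin gene, at 0.62 ± 0.43 and Myl1, a myosin light chain gene, at 0.33 ± 0.38 (SE). Muscle genes below the filter ran from Myf6 at -0.63 to Acta1 at 0.84, and without the filter the median was 0.02 over 20 genes. Endothelial genes were higher in 3 of 6 with a median of -0.06 (-0.15 without TCDD replicate 2), with the adhesion gene Pecam1 at -0.61 ± 0.30 and Emcn at 0.35 ± 0.20 (SE). Cartilage genes, the tissue of Ihh, were lower in 3 of 3 past the filter with a median of -0.07 (-0.20 without DMSO replicate 1 and -0.51 without DMSO replicate 2), Col9a3 at -0.46 ± 0.25 and Col9a2 at -0.07 ± 0.29 (SE), and the defining cartilage collagen Col2a1 had 11.0 and 18.9 in TCDD and 38.3 and 10.3 in DMSO. Other cartilage genes below the filter were higher, Col9a1 at 48.9 and 46.4 in TCDD and 17.0 and 32.1 in DMSO, and Col11a2 at 50.3 and 17.1 in TCDD and 20.4 and 4.3 in DMSO. Dim probe sets of Lyz2 (162309_at), Tnnt1 (101383_at) and Col9a3 (162103_i_at) differed by -0.31, -0.20 and 0.26. Bone genes had a median of 0.01 over 2 (-0.53 and 0.56 without TCDD replicates 1 and 2, 0.40 and -0.38 without DMSO replicates 1 and 2). Nerve and glia genes had one of -0.03 over 2 (-0.10 and 0.04, -0.13 and -0.12 without the same arrays), and red blood cell genes one of -0.09 over 4 (0.12 and -0.30, -0.16 and 0.03). The 4 genes of the aryl hydrocarbon receptor battery past the filter were all higher, 2 of them past the test, with a median of 1.90. The filter takes the mean of all arrays, so the TCDD signals brought in Cyp1a1 (mean 202.7 in TCDD and 13.7 in DMSO) and Nqo1 (85.8 and 34.45). The other Nqo1 probe set (94350_f_at), below the filter, had 56.2 and 28.3 in TCDD and 34.6 and 30.5 in DMSO (difference 0.22). Without the filter the median was 0.26 over 12 genes, where Ahrr stood at 0.67, Selenbp1 at 0.28, Xdh at 0.24, Gsta1 at -0.03, Aldh3a1 at -0.04, Serpinb2 at -0.07, Gsta2 at -0.10 and Cyp1a2 at -0.38. With the filter and an offset of 64 the median of the 4 genes was 1.45.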
